A study of Mus musculus with 6 samples.

Results

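Cd4 T cells of mouse cranial bone marrow, including those with transcripts of Foxp3, were examined in single-cell RNA-seq libraries of 3 ages and 2 anatomical sites. A cell belonged to them if its Cd3d, Cd3e and Cd3g unique molecular identifiers (UMIs, one per captured transcript molecule) summed to at least 2, if it had at least 1 UMI of Cd4, and if it had none of Cd8a, Cd8b1, Trdc or Cd79a. The cells were thus chosen by their own measured UMIs of these genes, after a quality filter that kept barcodes with a gene number between 500 and 5000, more than 500 UMIs and less than 25% of UMIs from mitochondrial genes. This left 207 Cd4 T cells of 37576 quality-controlled cells (0.551%), drawn from 43420 barcodes.

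The tissue was taken from wild-type C57BL/6 mice at 2 months (02m), 12 months (12m) and 18 months (18m), without any treatment. At each age, marrow next to the sagittal suture, with the suture mesenchyme and the neighbouring parietal bone, was named CBMA, and marrow of parietal bone away from the sutures was named CBMD. The study states that mice were male and that 6 to 8 were pooled per group, so each age and site is 1 library and no age comparison has a replicate. Cells were released with collagenase and dispase, and red blood cells and dead cells were removed before capture with 10x Genomics chemistry.

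T helper cells read antigen on MHC class II through Cd4 and steer other immune cells through secreted cytokines and surface ligands. Those that express the transcription factor Foxp3 are regulatory T cells, which restrain other lymphocytes through Ctla4 and a high-affinity interleukin-2 receptor that contains Il2ra. Marrow is known to hold memory and regulatory T cells beside its blood-forming cells.

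By library, the number of Cd4 T cells was 48 in CBMA_02m, 17 in CBMA_12m and 50 in CBMA_18m, and 12 in CBMD_02m, 49 in CBMD_12m and 31 in CBMD_18m. Their summed UMIs ranged between 78176 and 287558 per library, and the median cell had 4821 UMIs. Apart from the genes of the rule, T cell markers were common. Trac, the constant part of the T cell receptor alpha chain, was seen in 92.8% of them and Trbc2 in 93.7%. Il2ra was seen in 37 cells and Foxp3 in 28. Cd3e, part of the CD3 complex and one of the genes that chose the cells, was seen in 178 (86.0%). The B cell gene Ms4a1, the natural killer gene Ncr1 and the gamma delta T cell gene Sox13 were at 0. Klrb1c, a natural killer cell receptor, was seen in 7 cells and Zbtb16, a factor of innate-like T cells, in 6.

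Some properties of the libraries need to be known before the comparisons. In the 12m libraries, which are stated to be male, Xist was seen in 11 of 17 Cd4 T cells of CBMA and 30 of 49 of CBMD, and in none of the other libraries. A UMI of Ddx3y, Eif2s3y, Kdm5d or Uty, genes of the Y chromosome, was seen in 24 of 48, 2 of 17 and 34 of 50 cells of CBMA by age. In CBMD it was seen in 8 of 12, 11 of 49 and 21 of 31. In comparisons with 12m, age and these differences in sex-linked genes cannot be told apart. Values without the cells with Xist are given for some statements only, and the splits of genes apart between ages without them are in the closing section. Between 6 and 21 barcodes were shared by any pair of libraries, at most 0.291% of the smaller one. S100a8, a neutrophil gene, was seen in 181 of the 207 cells, and 9 neutrophil markers together took 0.452%, 0.364% and 0.276% of Cd4 T cell UMIs in CBMA at 02m, 12m and 18m, and 0.128%, 1.55% and 0.514% in CBMD. Transcripts of 8 genes related to ribosomal or other abundant short RNA took 13.7%, 2.00% and 15.4% in CBMA and 7.97%, 2.77% and 20.2% in CBMD, in the same order, so that the 12m libraries stood apart.

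The share of quality-controlled cells that passed the rule is a description, because the rule chose the cells. In CBMA it was 0.559% (95% exact binomial interval 0.413 to 0.741) at 02m, 0.625% (0.365 to 1.00) at 12m and 0.691% (0.514 to 0.910) at 18m. In CBMD it was 0.151% (0.0780 to 0.263) at 02m, 1.10% (0.813 to 1.45) at 12m and 0.468% (0.318 to 0.663) at 18m. The CBMA intervals overlapped across all 3 ages, whereas the CBMD intervals did not overlap between 02m and either older age. These intervals and all others given for single libraries cover counting error only. At the lower limit of the rule, 104 cells had exactly 1 Cd4 UMI, 16 of them with Foxp3, and 103 had more, 12 of them with Foxp3. Just outside it, 12 cells with Cd4 had a Cd3 sum of 1, and 12 members had a sum of 2.

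Within the T cell gate, Cd4 T cells as detected were the smaller of the classical classes. Cd4 was called from a single gene, with a median of 1 UMI per member, and Cd8 from Cd8a or Cd8b1. A Cd4 T cell whose Cd4 transcripts were missed counts among the cells with neither, so the numbers and shares below depend on detection. There were 594 Cd8 T cells, 508 T cells with neither Cd4 nor Cd8 transcripts and 18 with both. Cd4 T cells made up 33.3%, 28.8% and 21.5% of Cd4 plus Cd8 T cells in CBMA at 02m, 12m and 18m, and 26.7%, 30.6% and 19.4% in CBMD. The share was lowest at 18m in both sites, but the interval at 18m overlapped that at 02m in CBMA (16.4 to 27.3 at 18m, 25.7 to 41.7 at 02m) and in CBMD (13.6 to 26.4 at 18m, 14.6 to 41.9 at 02m).

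Foxp3 lies on chromosome X (GRCm38, 7573644 to 7595245) and encodes the factor that defines regulatory T cells. In CBMA, 7 of 48 Cd4 T cells had a Foxp3 UMI at 02m (14.6%, 6.07 to 27.8), 6 of 17 at 12m (35.3%, 14.2 to 61.7) and 5 of 50 at 18m (10.0%, 3.33 to 21.8). In CBMD, no cell of 12 had one at 02m, which allows a share of up to 25% if 3 cells are taken as the limit of a count of 0 (exact binomial limit 26.5%), against 7 of 49 at 12m (14.3%) and 3 of 31 at 18m (9.68%, 2.04 to 25.8). Over all libraries, 28 of 207 cells (13.5%, 9.18 to 19.0) were Foxp3-positive, and 21 of them had at least 2 Foxp3 UMIs.

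Compared within a site, the Foxp3-positive share at 18m was not distinguishable from that at 02m at this depth. The difference of 18m minus 02m was -4.58 percentage points in CBMA (95% Newcombe interval -18.4 to 8.94) and 9.68 points in CBMD (-15.4 to 24.9). That of 12m minus 02m was 20.7 points in CBMA (-1.24 to 45.2) and 14.3 points in CBMD (-11.0 to 26.7). The difference of 18m minus 12m was -25.3 points in CBMA (-49.4 to -4.02) and -4.61 points in CBMD (-18.5 to 12.2). Of these 6 intervals only that of 18m minus 12m in CBMA left out 0, and it rests on the 17 cells of CBMA_12m. Among those cells, 5 of 11 with Xist were Foxp3-positive, against 1 of 6 without it. In CBMD_12m the same split gave 6 of 30 against 1 of 19.

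**Figure D1:**
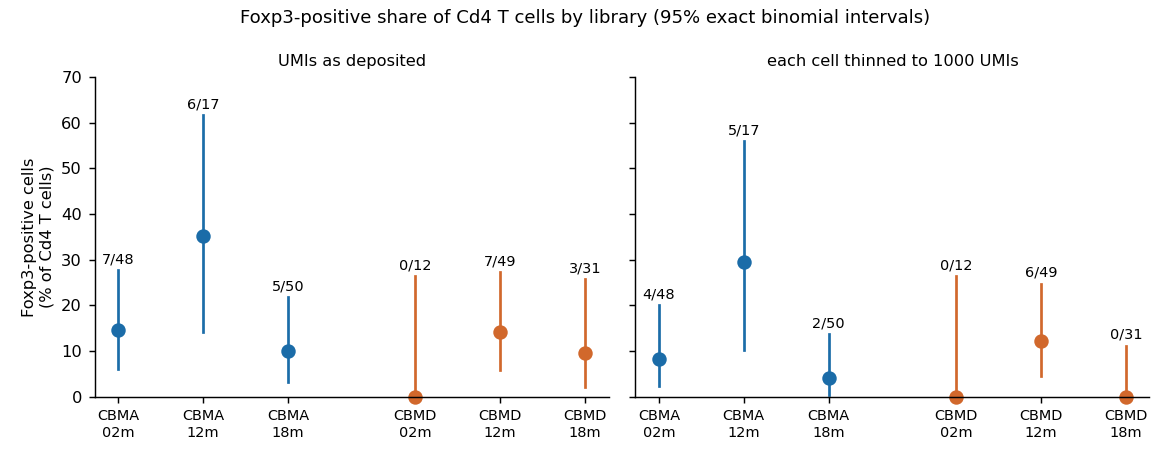
Share of Cd4 T cells with at least 1 Foxp3 UMI (vertical axis, percent) by age in CBMA and CBMD, as deposited (left) and with each cell thinned to 1000 UMIs (right), with exact binomial 95% intervals and cell numbers. As deposited, CBMA_12m is highest (35.3% of 17 cells) and CBMD_02m lowest (0 of 12), and all bars overlap; after thinning no Foxp3-positive cell is left in CBMD_18m either.

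Foxp3 detection in Cd4 T cells stood above that in cells that should lack it. It was seen in 3 of 594 Cd8 T cells (0.505%, 0.104 to 1.47), whose median depth was higher at 6293.5 UMIs, and in 0 of 666 B cells. Summed over cells, Foxp3 was at 83.5, 201 and 39.0 CPM (a gene's UMIs scaled to a common library total) in CBMA at 02m, 12m and 18m, and at 0, 138 and 21.1 CPM in CBMD. Il2ra, which encodes the alpha chain of the interleukin-2 receptor, was seen in 8, 6 and 11 cells of CBMA and in 0, 10 and 2 cells of CBMD. When each cell was thinned to 1000 UMIs, 4, 5 and 2 Foxp3-positive cells were left in CBMA and 0, 6 and 0 in CBMD.

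To describe the Foxp3-positive cells, their UMIs were summed per library and set against those of the Foxp3-negative Cd4 T cells of the same library, with edgeR and the library as a block. CBMD_02m had no Foxp3-positive cell, so 5 libraries entered. Of 5259 genes tested, 13 were higher (0.247%) and 38 lower (0.723%) in Foxp3-positive cells at a Benjamini-Hochberg adjusted p under 0.05. With both sites of an age summed, as the sites may share mice, 5 were higher and 10 lower. Of the 20 measurable genes of the regulatory T cell program, 4 were higher (Ikzf2, Tnfrsf9, Il1rl1 and Tnfrsf4) and none lower, with a median log2 difference of 0.65, against -0.23 over all genes tested.

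Ikzf2, which encodes Helios, a factor of regulatory T cells, was at 908, 1739, 1407, 1824 and 1773 CPM in Foxp3-positive cells of CBMA_02m, CBMA_12m, CBMA_18m, CBMD_12m and CBMD_18m, against 217, 308, 404, 980.3 and 359 CPM in Foxp3-negative cells of the same libraries. The groups met only in that CBMD_12m had the highest Foxp3-negative value, just over the lowest Foxp3-positive one. Ikzf2 was higher by 1.64 ± 0.26 on the log2 scale (SE, higher in 5 of 5 libraries, edgeR adjusted p = 5.8e-07). Of Foxp3-positive cells, 25 of 28 had an Ikzf2 UMI, against 83 of 179 Foxp3-negative cells.

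Tnfrsf9, the costimulatory receptor 4-1BB, was at 248, 0, 201, 252 and 306 CPM in Foxp3-positive cells in that order of libraries, against 25.1, 34.2, 20.2, 91.0 and 40.5 CPM in Foxp3-negative cells. It was higher in 4 of 5 libraries (2.2 ± 0.50, edgeR adjusted p = 0.0028), and passed no more without CBMA_02m (adjusted p = 0.091). Cd83, an activation marker that is also found on regulatory T cells, was higher in 5 of 5 libraries (2.66 ± 0.47, edgeR adjusted p = 1.9e-05). Tnfrsf4, the costimulatory receptor OX40, was higher in 4 of 5 libraries (1.40 ± 0.38, edgeR adjusted p = 0.03), but the call was lost without CBMA_02m, CBMA_18m, CBMD_12m or CBMD_18m (adjusted p between 0.067 and 0.80). Il1rl1, the receptor for interleukin-33, rested on 3 libraries and on 19 UMIs in 4 Foxp3-positive cells. Other genes of the program were not called: Ctla4 was at 0.89 ± 0.35, Tnfrsf18, which encodes the receptor GITR, at 0.95 ± 0.35, and Il2ra at 0.48 ± 0.55.

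The genes that were lower in Foxp3-positive cells included those of cytotoxic and memory-like T cells. Ccl5, a chemokine of effector and memory T cells, was at 0, 188, 0, 105 and 0 CPM in Foxp3-positive cells, against 736, 1865, 1799, 1678 and 1412 CPM in Foxp3-negative cells. The groups did not overlap (-5.01 ± 0.38, edgeR adjusted p = 3e-35). Nkg7, a protein of cytotoxic granules, fell likewise, with 5 UMIs in Foxp3-positive cells and 334 in Foxp3-negative cells (-3.63 ± 0.53, edgeR adjusted p = 1.8e-08).

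Of 9 measurable cytotoxic genes 3 were lower (Ccl5, Nkg7 and Klrk1), of 22 effector and memory genes 5, and of 14 genes of naive and central T cells 2 (Tcf7 and Satb1). No gene of these 3 lists was higher. Cxcr6, a chemokine receptor of tissue-resident T cells, had 0 UMIs in Foxp3-positive cells against 123 in Foxp3-negative cells, at least 7.55-fold lower if 3 UMIs are allowed over the group. Cd40lg, the ligand through which helper cells license B cells and dendritic cells, had 0 against 64 UMIs, at least 3.93-fold lower. The Cd40lg call was lost without CBMA_12m, CBMA_18m or CBMD_12m (edgeR adjusted p between 0.058 and 0.097), and that of Satb1 without CBMA_02m, CBMA_18m or CBMD_12m (between 0.061 and 0.46).

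Tnfsf8, the ligand of CD30, was lower in Foxp3-positive cells in 5 of 5 libraries (-3.05 ± 0.51, edgeR adjusted p = 2.5e-06). Tcf7, a factor of naive and stem-like T cells, was lower in 4 of 5 libraries, with CBMD_18m as the exception (-2.35 ± 0.47, edgeR adjusted p = 0.00033). Bcl2, which keeps resting lymphocytes alive, was lower in 5 of 5 libraries (-2.11 ± 0.46, edgeR adjusted p = 0.0018). DESeq2 did not call Tcf7 (adjusted p = 0.082) or Bcl2 (adjusted p = 0.11).

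**Figure D2:**
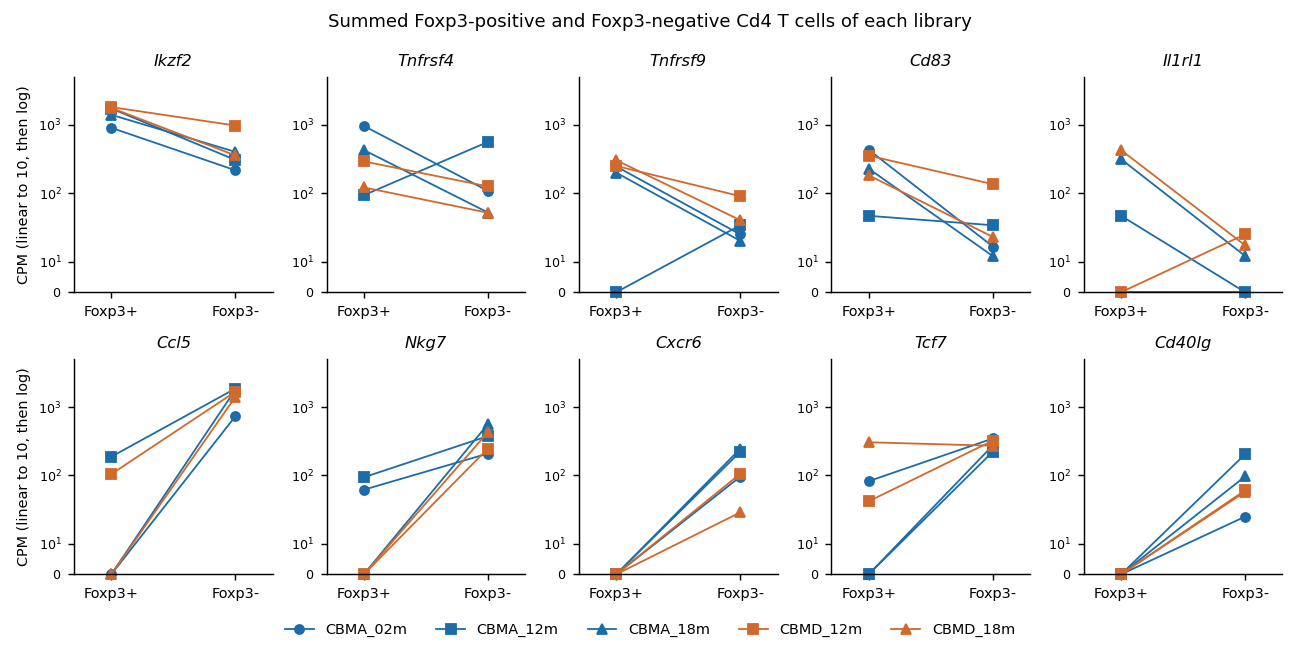
CPM summed over the Foxp3-positive (left) and Foxp3-negative (right) Cd4 T cells for selected genes, each line joining the sums of 1 library, on an axis that is linear up to 10 and logarithmic above. Ikzf2 and Cd83 lay higher in Foxp3-positive cells in all 5 libraries, and Ccl5 and Nkg7 lay lower in all 5.

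The 13 higher genes also held some outside the regulatory program. Cybb (1.88 ± 0.43, edgeR adjusted p = 0.0032) and the B cell marker Ighm (1.12 ± 0.28, edgeR adjusted p = 0.013) were higher in 5 of 5 libraries. Cd74, of the MHC class II list (1.71 ± 0.41, edgeR adjusted p = 0.0071), and Pglyrp1 (1.41 ± 0.40, edgeR adjusted p = 0.04) were higher in 4 of 5. Among the 13 higher genes, Camp, Ngp, Ltf and Fcnb are granule genes of developing neutrophils. Camp was at 9707 CPM in the Foxp3-positive cells of CBMD_12m, against 157 CPM in its Foxp3-negative cells, and between 0 and 611 CPM in Foxp3-positive cells elsewhere. A single Foxp3-positive cell of CBMD_12m held 456 of the 480 Camp UMIs of these cells, and 22.3% of its 14332 UMIs came from neutrophil markers. Without CBMD_12m, 5 genes were higher and 20 lower. Without CBMA_18m, 18 genes were lower, and without CBMD_18m, 21. DESeq2 called 5 higher and 5 lower. Of the neutrophil markers, S100a8 (-1.28 ± 0.27, edgeR adjusted p = 0.00077) and Retnlg (-1.49 ± 0.42, edgeR adjusted p = 0.04) were lower in Foxp3-positive cells, and S100a8 was at 0.21 without cells of high doublet score.

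Set against Cd8 T cells of the same libraries, Cd4 T cells were enriched for genes of regulation and help and depleted of cytotoxic and naive genes. Of 9794 genes tested in 6 libraries with edgeR and the library as a block, 427 were higher (4.36%) and 567 lower (5.79%) in Cd4 T cells. The genes of the rule were not tested. Without CBMA_18m, 272 genes were higher. DESeq2 called 235 higher and 285 lower.

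Of 26 measurable genes of the regulatory T cell program, 21 were higher and 1 lower, Il2rb, with a median log2 difference of 1.89 (all genes -0.06). Ctla4, which restrains costimulation, was at 76.5, 339, 177, 12.8, 342 and 190.3 CPM in Cd4 T cells of CBMA_02m, CBMA_12m, CBMA_18m, CBMD_02m, CBMD_12m and CBMD_18m, against 5.96, 10.7, 6.08, 0, 33.5 and 2.44 CPM in Cd8 T cells. It was higher in 6 of 6 libraries, by 3.92 ± 0.27 (edgeR adjusted p = 2.2e-18), although CBMD_02m, with 1 Ctla4 UMI in its Cd4 T cells, lay below Cd8 T cells of CBMD_12m. Ikzf2 was also higher in 6 of 6 libraries (1.89 ± 0.16, edgeR adjusted p = 1.9e-14), as were Izumo1r, the folate receptor 4 of regulatory and follicular helper cells (4.01 ± 0.25, edgeR adjusted p = 1.3e-20), and Tnfrsf4 (4.16 ± 0.33, edgeR adjusted p = 6e-16).

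Of 14 measurable genes of follicular helper and exhausted T cells, 10 were higher and 1 lower in Cd4 T cells. Maf, a factor that drives interleukin-21 and interleukin-10 production, was at 438, 1379.7, 932, 192, 709 and 687 CPM in Cd4 T cells, against 53.6, 92.7, 74.4, 41.4, 94.6 and 47.6 CPM in Cd8 T cells, in the same order of libraries. The groups did not overlap (3.08 ± 0.16, edgeR adjusted p = 2e-23). Pdcd1, the inhibitory receptor PD-1, was higher in 5 of 6 libraries and at 0 in both classes of CBMD_02m (3.91 ± 0.35, edgeR adjusted p = 2e-13). Tox, a factor of exhausted and of developing helper T cells, was higher by 1.49 ± 0.17 (edgeR adjusted p = 2.7e-10). The exception in the list was Eomes, a factor of cytotoxic memory cells, which was lower (-1.60 ± 0.26, edgeR adjusted p = 1.9e-06).

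Ligands and cytokines of helper cells were higher in 8 of 14 measurable cases and lower in 1, Fasl, which encodes the death ligand of cytotoxic cells. Il21, which drives B cell maturation, had 32 UMIs in Cd4 T cells and 0 in Cd8 T cells, at least 36.3-fold higher, and Cd40lg was higher in 6 of 6 libraries (4.25 ± 0.45, edgeR adjusted p = 3.7e-11). All 4 measurable genes of the Th17 list were higher (Ccr6, Tmem176a, Tmem176b and Rora). Of the lineage factors, Zbtb7b, which commits thymocytes to the helper fate, was higher (2.16 ± 0.35, edgeR adjusted p = 2.4e-06), and Runx3, which commits them to the cytotoxic fate, was lower (-1.48 ± 0.17, edgeR adjusted p = 5.1e-10).

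Of 14 cytotoxic genes 12 were lower in Cd4 T cells and none higher. Ccl5 was at 612, 1417, 1577, 806, 1372 and 1290.0 CPM in Cd4 T cells, against 1871, 7679.7, 5178, 2867, 6096 and 4285 CPM in Cd8 T cells. The groups did not overlap (-2.21 ± 0.12, edgeR adjusted p = 5.9e-23). Klrd1, which encodes the receptor CD94, was lower in 6 of 6 libraries (-3.06 ± 0.24, edgeR adjusted p = 3.6e-16), and Gzma, a granule protease, had 0 UMIs in Cd4 T cells against 105 in Cd8 T cells, at least 10.3-fold lower.

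Of 17 genes of naive and central T cells 13 were lower in Cd4 T cells. They included Satb1, a chromatin organiser of T cells (-2.18 ± 0.19, edgeR adjusted p = 4.3e-14), and Ccr7, which guides cells to lymph nodes (-1.85 ± 0.26, edgeR adjusted p = 6e-08), each lower in 6 of 6 libraries. Of 18 proliferation genes 11 were higher, among them Mki67 (1.24 ± 0.21, higher in 6 of 6 libraries, edgeR adjusted p = 5e-06). Of 19 early activation genes 10 were lower and 1 higher, Cd40lg. Of 9 neutrophil markers 5 and of 6 measurable erythroid markers 4 were lower in Cd4 T cells, and their part in the comparison was not tested.

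**Figure D3:**
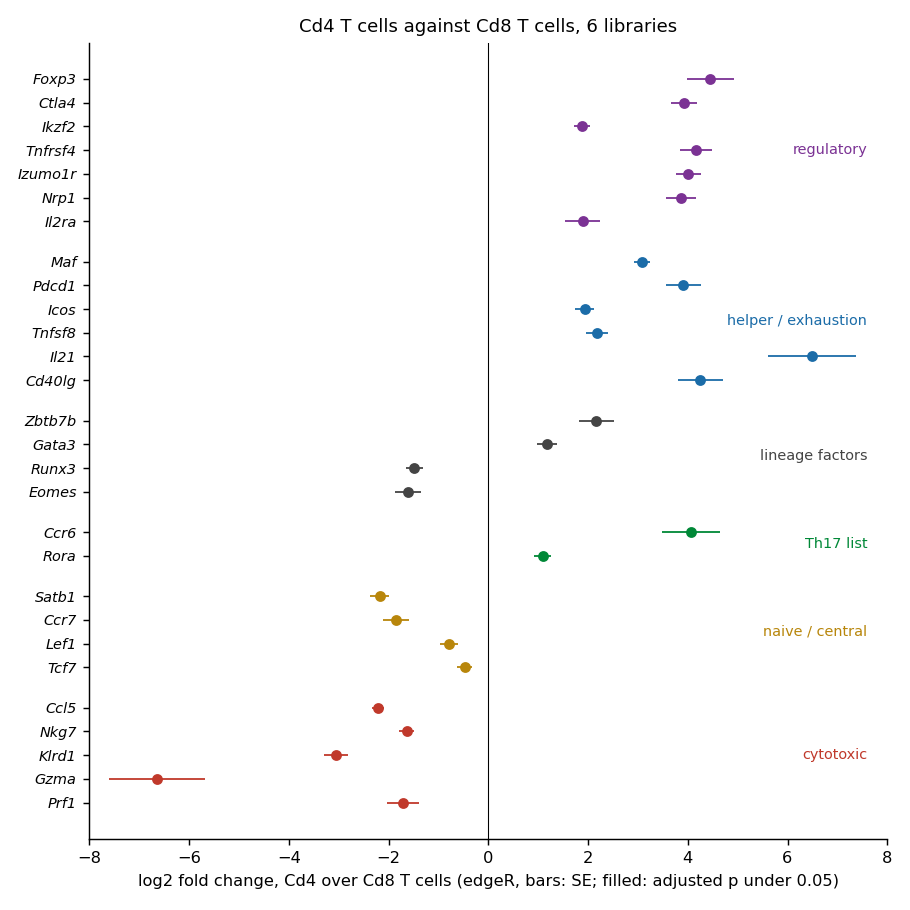
Log2 difference of Cd4 T cells from Cd8 T cells with its standard error for selected genes, from sums of 6 libraries each. Points right of 0 are higher in Cd4 T cells (Ctla4 at 3.92, Maf at 3.08) and points left of 0 are lower (Ccl5 at -2.21, Klrd1 at -3.06). The fitted values of Il21 and Gzma, each with 0 UMIs in one class, depend on a prior count and are no bounds.

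Ages were compared within each site on the UMIs summed over the Cd4 T cells of a library, as ratios of CPM with exact Poisson intervals and without a test. These intervals take every UMI as independent. UMIs of a gene can lie together in a few cells, so the intervals can be too narrow, also where they select genes below. Genes with at least 30 UMIs over both libraries were considered, and a gene was counted as apart at a ratio of 2 or more in either direction. That minimum equals 384 CPM in CBMD_02m, against 122 CPM in CBMD_12m and 159 CPM in CBMD_18m. A gene low at 02m in CBMD thus passes mainly through the older library where it is high. Counts of list members higher than at 02m in CBMD are in part set by this filter. In CBMA_12m the minimum equals 376 CPM, against 104 CPM in CBMA_02m and 106 CPM in CBMA_18m. A gene low at 12m in CBMA thus passes mainly through the other library, which bears on counts of genes lower at 12m. At 18m against 02m, 414 of 2992 genes (13.8%) were apart upward and 136 (4.55%) downward in CBMA, and 205 of 1332 (15.4%) upward and 156 (11.7%) downward in CBMD. The median log2 ratio of all these genes was 0.21 in CBMA and -0.02 in CBMD. With median-of-ratios size factors those medians moved to 0 and 0.06, and the split changed to 274 up and 246 down in CBMA and 223 up and 125 down in CBMD. In both sites, 76 genes were apart upward and 18 downward with intervals that left out 1.

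Among genes of follicular helper and exhausted T cells, 8 of 11 measurable members reached a 2-fold higher value at 18m against 02m in CBMA, and 6 of 7 did so in CBMD, with no member lower. The median log2 ratio was 1.16 in CBMA and 2.23 in CBMD. In Cd8 T cells of the same libraries the list had medians of 0.69 and 0.25. A difference between the classes was not tested. In CBMD the minimum of UMIs favours genes high at 18m, which bears on the count of 6 of 7 and on the median.

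Pdcd1 was at 27.8, 100.3 and 177 CPM in CBMA at 02m, 12m and 18m, and at 0, 73.3 and 179.8 CPM in CBMD. In both sites the value was highest at 18m. The ratio of 18m to 02m was 6.37 (3.00 to 15.6) in CBMA, and the value was at least 4.68-fold higher in CBMD, where 02m had no Pdcd1 UMI. In Cd8 T cells Pdcd1 stayed between 0 and 10.7 CPM in every library.

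In the order of age, Tnfsf8 stood at 97.4, 464 and 244 CPM in CBMA, while CBMD had 0, 244 and 365 CPM. It was 2.51-fold higher at 18m than at 02m in CBMA (1.60 to 4.05) and at least 9.51-fold higher in CBMD. The 02m library was the lowest of each site. Maf was 2.13-fold higher at 18m than at 02m in CBMA (1.71 to 2.65) and 3.58-fold in CBMD (2.09 to 6.58). Tox was 2.35-fold higher in CBMA (1.64 to 3.42) and 5.13-fold in CBMD (2.08 to 16.3), and it was seen in 35 of 50 cells of CBMA_18m against 16 of 48 cells of CBMA_02m. Tox was as high at 12m, with 389 CPM in CBMA and 407 CPM in CBMD, as at 18m, with 368 and 328 CPM.

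Gzmk, a granule protease, and Eomes were found mostly in the 18m cells. Gzmk had 0, 2 and 28 UMIs in CBMA at 02m, 12m and 18m, and 0, 0 and 17 in CBMD, the 18m UMIs lying in 8 cells of CBMA and 6 of CBMD. No ratio is given for Gzmk, which had under 30 UMIs over 18m and 02m in either site. Eomes had 2, 2 and 35 UMIs in CBMA, a ratio of 17.8 between 18m and 02m (4.58 to 153), and 1, 6 and 16 in CBMD, under the same minimum. Of the 16 cells with Gzmk and the 16 with Eomes, 10 had both, and 13 of the Gzmk cells had Ccl5. No cell with Gzmk or Eomes had Foxp3. Of the 46 cells with Pdcd1, 41 had Tox, 43 had Maf and 7 had Foxp3, while among all 207 cells Tox was seen in 121, Maf in 156 and Foxp3 in 28. These counts depend on depth, and the CBMD_02m library holds only 12 cells.

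Genes of early activation and of the AP-1 complex, which respond within minutes to receptor signals and to handling of cells, were 2-fold higher at 18m, set against 02m, for 13 of 18 measurable members in CBMA and 9 of 17 in CBMD, with none lower. The median log2 ratios were 1.74 and 1.22, and 1.51 and 1.10 in Cd8 T cells. Nr4a3, a nuclear receptor induced by T cell receptor signals, had no UMI at 02m in either site. At 12m and 18m CBMA had 163 and 167 CPM of it, while CBMD had 387 and 190.3 CPM. The 18m level was at least 16.0-fold higher in CBMA and at least 4.96-fold higher in CBMD than that of 02m. Bhlhe40, a factor of activated T cells, was 10.7-fold higher in CBMA (5.59 to 23.0) and 7.03-fold in CBMD (3.12 to 19.6). Tnfaip3, which dampens NF-kB signalling, was 6.81-fold (4.33 to 11.2) and 9.84-fold higher (4.10 to 30.9).

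Heat shock genes moved with them, 7 of 10 being higher at 18m than at 02m in CBMA and 4 of 9 in CBMD. The medians were 1.37 and 0.89, and 0.70 and 1.22 in Cd8 T cells. Hspa1a, an inducible chaperone, had 57 UMIs at 18m against 1 at 02m in CBMA, and 76 against 0 in CBMD. Whether heat shock bears on the activation values was not tested. The 12m libraries differed by site, as Hspa1a was at 12.5 CPM in CBMA_12m and at 439.8 CPM in CBMD_12m.

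**Figure D4:**
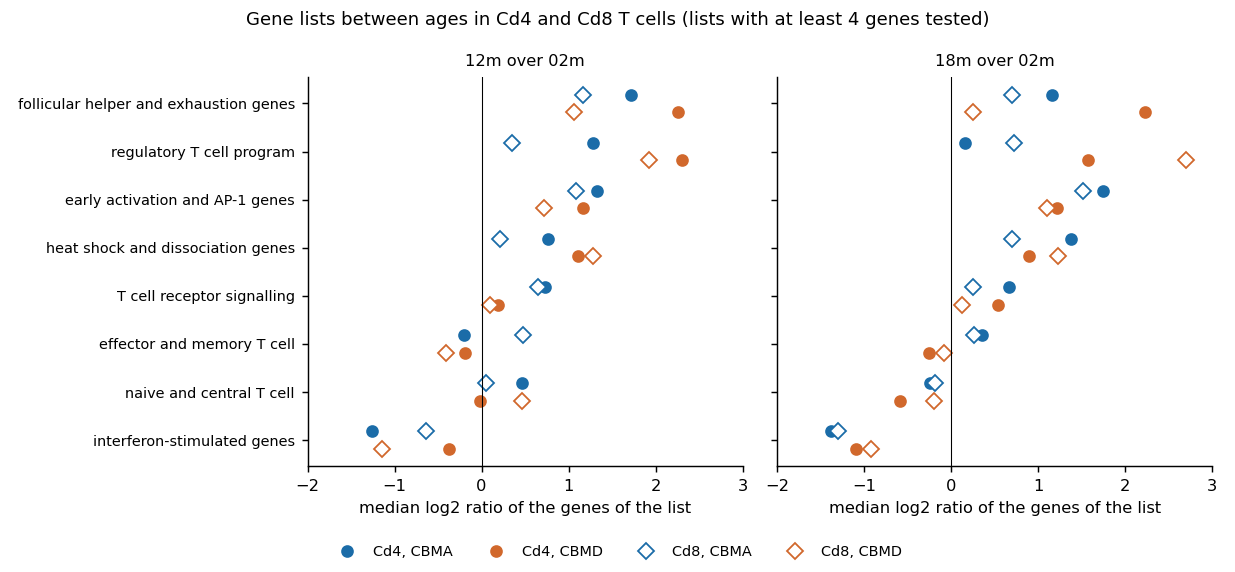
Median log2 ratio of 12m over 02m and of 18m over 02m for gene lists with at least 4 measurable genes, in Cd4 T cells (filled circles) and Cd8 T cells (open diamonds) of CBMA and CBMD. Follicular helper and exhaustion genes and early activation genes lie right of 0 for both older ages against 02m, and interferon-stimulated genes lie left of 0.

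Interferon-stimulated genes, which respond to type I and type II interferons, ran the other way. In CBMA 12 of 21 measurable genes reached a 2-fold lower value at 18m against 02m, and in CBMD 2 of 4, with none higher in either site and medians of -1.38 and -1.10. Cd8 T cells gave medians of -1.30 and -0.92. Ifi27l2a, an interferon-induced mitochondrial protein, was at 4625, 702 and 393 CPM in CBMA at 02m, 12m and 18m, and at 2546, 888 and 608 CPM in CBMD. The 18m value was 0.085 of that at 02m in CBMA (0.0694 to 0.103) and 0.239 in CBMD (0.188 to 0.302). Slfn1, which restrains T cell proliferation, was 0.378-fold at 18m in CBMA (0.223 to 0.619) and 0.282-fold in CBMD (0.136 to 0.568).

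Other genes that were lower at 18m in both sites were Plac8, a small protein of myeloid and lymphoid cells, at 0.0551-fold (0.0198 to 0.124) in CBMA and 0.239-fold (0.103 to 0.529) in CBMD, and Lef1, a factor of naive T cells, at 0.25-fold (0.125 to 0.465) and 0.387-fold (0.178 to 0.837). Ifitm3, an antiviral membrane protein, had 344, 113 and 28.3 CPM by age in CBMA, while CBMD had 397, 122 and 148 CPM. In CBMD 1 cell carried much of it, and without the cell with most UMIs its log2 ratio of 18m to 02m was 0.17. Of the naive and central genes 3 of 11 were lower and 1 higher at 18m in CBMA (Il7r, the interleukin-7 receptor), and 2 of 8 were lower and none higher in CBMD. The short RNA Rn7sk was at 2083 CPM in CBMA_02m and 2072 CPM in CBMD_02m, and at 93.7 CPM or less in the older libraries. Igkc, an antibody light chain made by plasma cells, was at 125, 1505 and 340.1 CPM by age in CBMA Cd4 T cells and at 91.4, 3267 and 220.3 CPM in CBMA Cd8 T cells. CBMD had 0, 485 and 481 CPM in Cd4 T cells and 11.8, 323 and 309.9 CPM in Cd8 T cells. The part of plasma cell RNA in it was not tested.

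**Figure D5:**
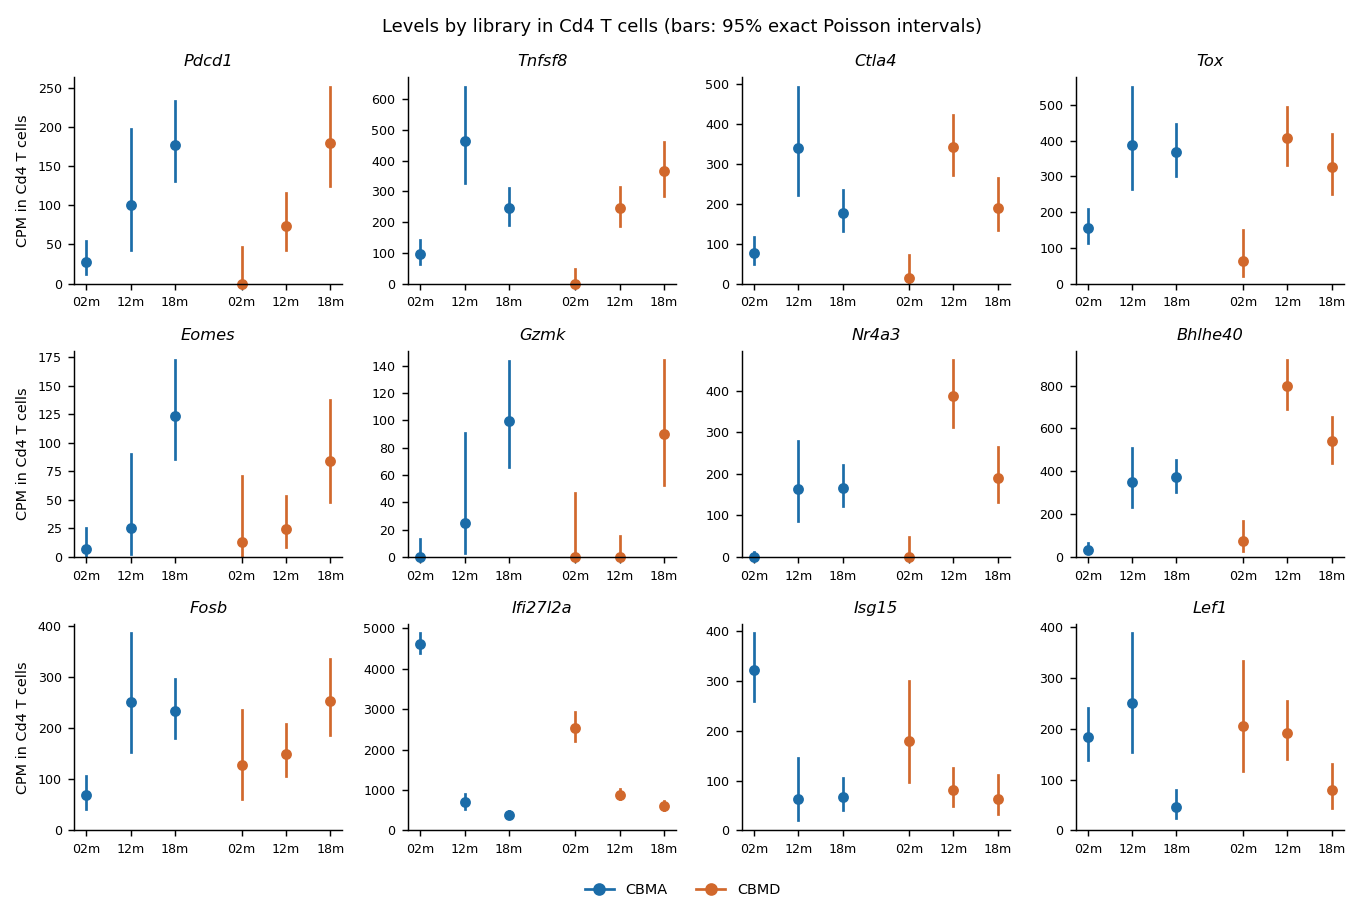
CPM in Cd4 T cells by age (02m, 12m and 18m) for selected genes in CBMA and CBMD, with exact Poisson 95% intervals. Pdcd1 and Tox lie higher at 12m and 18m than at 02m in both sites, and Ifi27l2a lies lower. Gzmk and Eomes are highest at 18m in both.

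At 12m against 02m, 285 of 1842 genes (15.5%) were apart upward and 115 (6.24%) downward in CBMA, and 409 of 1799 (22.7%) upward and 99 (5.5%) downward in CBMD. In CBMA the split turned to 109 up and 230 down with size factors, which moved the median log2 ratio of all genes there to -0.10, against 0.30 with total UMIs. Of follicular helper and exhaustion genes, 7 of 8 measurable were higher at 12m in each site, with medians of 1.72 in CBMA and 2.26 in CBMD. Early activation genes were higher in CBMA for 12 of 15 and in CBMD for 10 of 17. Of interferon-stimulated genes, 9 of 17 were lower and 1 higher in CBMA, and 3 of 9 lower and 1 higher in CBMD. The medians of that list were -1.26 and -0.38, and the CBMD median turned to 0.54 without cells of high doublet score. Of the regulatory T cell program, 10 of 13 measurable were higher at 12m in CBMA and 13 of 14 in CBMD, with none lower. The medians were 1.29 and 2.31, and 0.35 and 1.92 in Cd8 T cells, where 5 genes were measurable in each site. In CBMD the minimum of UMIs favours genes high at 12m, so the CBMD list counts and medians given here are in part set by that filter. In CBMA it favours genes high at 02m, which bears on the counts of genes lower at 12m there. Ctla4 was 4.43-fold higher at 12m than at 02m in CBMA (2.43 to 8.15), and had 84 UMIs at 12m against 1 at 02m in CBMD. Foxp3 was 2.40-fold higher in CBMA (1.19 to 4.72) and at least 3.61-fold in CBMD, but without the cells with Xist its log2 ratio in CBMA was -0.23. For the other genes and the medians of this program, values without the cells with Xist are not given here. Of the same program at 18m, 3 of 14 were higher (Ctla4, Icos and Nrp1) and 3 lower (Foxp3, Tnfrsf4 and Tnfrsf18) in CBMA, and 4 of 6 higher (Ctla4, Ikzf2, Nrp1 and Izumo1r) and none lower in CBMD. The medians at 18m against 02m were 0.16 in CBMA and 1.57 in CBMD, and 0.72 and 2.70 in Cd8 T cells. Differences between the classes were not tested.

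Between 18m and 12m, 132 of 2099 genes (6.29%) were apart upward and 130 (6.19%) downward in CBMA, and 77 of 2423 (3.18%) upward and 246 (10.2%) downward in CBMD. In CBMD the split turned to 184 up and 126 down when the 8 genes related to ribosomal and other abundant short RNA were left out of the totals, and in CBMA to 206 up and 70 down. Only 10 genes were higher and 16 lower at 18m in both sites with intervals that left out 1. Ifng, the cytokine interferon gamma, was 3.60-fold higher at 18m than at 12m in CBMA (1.32 to 13.7) and 2.60-fold in CBMD (1.58 to 4.38). In CBMA it had 4 UMIs in 2 cells at 12m and 51 UMIs in 18 cells at 18m, and there the minimum of UMIs favours genes high at 18m. Tnfrsf4 was 0.226-fold (0.132 to 0.382) and 0.366-fold (0.169 to 0.729). Tnfrsf18 was 0.22-fold (0.134 to 0.359) and 0.492-fold (0.287 to 0.817). These ratios include the 12m cells with Xist. Proliferation genes differed by site, with 3 of 11 measurable lower and none higher at 18m in CBMA, and 6 of 9 higher and none lower in CBMD. Mki67, a marker of cycling cells, and Top2a, which untangles replicating DNA, were among those higher in CBMD. These values rest on few cells. Among Foxp3-negative cells, Mki67 had 85 UMIs in 5 cells of CBMD_18m and 3 UMIs in 2 cells of CBMD_12m. Top2a had 109 UMIs in 8 cells and 12 UMIs in 7 cells, in the same order.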

How the data were processed

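Single-cell RNA-seq of 6 libraries was analysed from the matrices as deposited, which hold UMI counts per gene and barcode. Per the labels and the study's methods, the authors made these counts with bcl2fastq and Cell Ranger on GRCm38. The annotation release was not given in the sources used here. The members and lists were chosen with earlier results of these data known. UMIs were summed per library and cell class and tested with edgeR 4.0.16 (R 4.3.3; TMM, quasi-likelihood, library as block, at least 30 UMIs over all sums, Benjamini-Hochberg). Both sites of an age may share mice, so p-values may measure technical spread only. The genes named were drawn from those of the rule and from list members with at least 30 UMIs. Others came from the 15 of smallest p per direction of each edgeR comparison. Further ones were among the genes most apart between ages in the same direction in both sites. Gzmk, Eomes and Tox are genes the study names for T cells. Not every gene of these sets is named. Pseudocounts of 0.5 UMI entered log2 ratios between ages only. Alternatives changed the rule, depth, filters, scaling, doublets (scanpy 1.11.5 Scrublet scores, kept in the values above), libraries and the tool (DESeq2 1.42.0). The test scripts were tested on simulated data. Python 3.11.15 was used. The 02m CBMD library has 12 cells, so 1 UMI there equals 12.8 CPM.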

Additional observations from a re-analysis of the deposited data

Results flagged for a closer look

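The age difference of the Foxp3-positive share of Cd4 T cells had opposite signs in the sites: 18m minus 02m was -4.58 percentage points in CBMA and 9.68 points in CBMD. The share of quality-controlled cells that were Cd4 T cells also moved in opposite directions, 18m minus 12m being 0.0659 points in CBMA and -0.630 points in CBMD. Neither difference between sites was tested, because each age and site is 1 library, and the interval of each Foxp3 difference includes 0.

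Foxp3 was also seen in T cells outside the rule: 34 of 508 T cells with neither Cd4 nor Cd8 transcripts (6.69%) had a Foxp3 UMI, against 3 of 594 Cd8 T cells. Of 104 quality-controlled cells with Foxp3, 28 were Cd4 T cells. Counted over Cd4 T cells and T cells with neither transcript together, the Foxp3-positive share was 13.3%, 16.1% and 6.21% in CBMA at 02m, 12m and 18m, and 4.35%, 8.59% and 6.40% in CBMD.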

How the results depend on the processing

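Libraries hold 12 to 50 Cd4 T cells. Counts of genes apart moved most with the minimum of UMIs, the fold and thinning, which left 374 of 2992 genes for 18m over 02m in CBMA. There, leaving out doublets gave 533 and leaving out cells over 2% neutrophil UMIs 529, against 550. The edgeR comparisons paired cell classes within each library. No pairing of libraries across ages or sites was possible because the labels give every library the same replicate number. A model of age with site as block, which would take the sites as replicates, was not run. Where a cause is not part of the alternative itself, the cause was not tested.

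The Foxp3-positive share stayed within its interval under 77 of 84 alternatives. This says little where the interval is wide, as in CBMA_12m (14.2% to 61.7%). With the whole rule on cells thinned to 1000 UMIs the share was 33.3% in CBMA_02m and 0% in CBMA_18m and CBMD_18m, and with Foxp3 alone thinned 0% in CBMD_18m. With at least 2 Cd4 UMIs it was 12.5% in CBMA_12m and 3.13% in CBMA_18m, and without 12m cells with Xist 5.26% in CBMD_12m. The Cd4 T cell share of quality-controlled cells in CBMA at 02m, 12m and 18m was 0.256%, 0.294% and 0.442%, and in CBMD 0.0628%, 0.426% and 0.257%, with at least 2 Cd4 UMIs. After thinning to 1000 UMIs CBMA had 0.0706%, 0.165% and 0.209%, while CBMD had 0.0128%, 0.267% and 0.0914%. Without cells with Xist it was 0.354% in CBMA_12m and 0.735% in CBMD_12m.

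Counts of genes apart are given for 18m over 02m, 12m over 02m and 18m over 12m, first in CBMA and then in CBMD. They were 209, 135, 74, 153, 186 and 124 with at least 60 UMIs, and 1795, 1679, 1300, 1367, 1673 and 1404 with at least 10. They were 1355, 846, 751, 664, 877 and 851 at 1.5-fold, and 153, 108, 80, 116, 260 and 99 at 3-fold. After thinning to 1000 UMIs they were 77, 36, 32, 62, 56 and 67. Without the cell with most UMIs of each gene, an alternative chosen after seeing the data, they were 333, 196 and 157 in CBMA, and 195 for 18m over 02m and 190 for 18m over 12m in CBMD. Without cells with Xist, 414 were apart for 18m over 12m in CBMA and 191 for 12m over 02m in CBMD.

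Splits of these genes also moved. Without cells with Xist, 12m over 02m gave 228 up and 157 down in CBMA and 121 up and 70 down in CBMD, and 18m over 12m gave 231 up and 183 down in CBMA and 118 up and 140 down in CBMD. Thinned, 44 were up and 33 down for 18m over 02m in CBMA and 17 up and 45 down in CBMD. For 12m over 02m in CBMA, totals without the 8 genes related to ribosomal and other short RNA gave 195 up and 150 down. With size factors, 203 were up and 76 down for 18m over 12m in CBMA, and 115 up and 184 down in CBMD. For 18m over 02m in CBMD, totals without those 8 genes gave 261 up and 74 down.

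List medians stayed inside their intervals, which are wide for short lists, in 309 of 323 alternatives. The regulatory program for 12m over 02m in CBMA was 1.91 without Foxp3-positive cells. Effector genes for 18m over 12m in CBMD were at 0.13 without cells with Xist and 0.22 with totals lacking the 8 genes, and cytotoxic genes at 1.25 without cells with Xist. Early activation genes for 12m over 02m in CBMA were at 0.93 with size factors, 1.04 without cells with Xist and 1.15 with totals lacking the 8 genes, which gave -0.34 for 18m over 12m in CBMD. Interferon-stimulated genes were at 0.54 without doublets for 12m over 02m in CBMD, and at -0.022 with totals lacking the 8 genes for 18m over 12m. Proliferation genes for 12m over 02m in CBMA were at 1.43 without doublets, 1.55 without Foxp3-positive cells and 1.67 without cells with Xist, and at 1.42 without doublets for 18m over 02m in CBMD. Totals lacking the 8 genes, and list medians without cells with Xist, were chosen after seeing the data.

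Single log2 ratios that changed sign were Ifitm3 for 18m over 02m in CBMD at 0.17 and Isg15 for 12m over 02m in CBMD at 0.0057, both without the cell with most UMIs, Slfn1 for 12m over 02m in CBMA at 0.057 after thinning, and Foxp3 for 12m over 02m in CBMA at -0.23 without cells with Xist.

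Between Foxp3-positive and Foxp3-negative cells, 13 genes higher and 38 lower became 5 and 5 with DESeq2, and 5 and 10 with the sites of an age summed. With at least 10 UMIs 77 were lower, with no filter beyond 1 UMI 7 were higher and 92 lower, and without the 12m libraries 7 were higher. Leaving out each library gave 5 to 17 higher and 18 to 38 lower. S100a8 was at 0.21 without doublets. Ngp was at -0.33 without cells over 2% neutrophil UMIs and Camp at -0.91 without the 12m libraries. Leaving out each library gave -0.19 to 3.03 for Ngp and -0.037 to 2.53 for Camp, both lowest without CBMD_12m. Between Cd4 and Cd8 T cells, DESeq2 called 235 higher and 285 lower, and leaving out each library gave 272 to 434 higher and 409 to 555 lower.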
